A study of Mus musculus with 4 samples.

Results

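The 45 genes described here are the nuclear-encoded genes whose symbols begin with Nduf, all of them among the 27998 features of the deposited matrices. They were followed in single cells of MT4788 mouse breast tumours, a syngeneic orthotopic model in FVB mice of wild-type genotype, taken on day 4 and enriched with CD45 beads. There were 4 libraries of 1 tumour each. The control tumour had saline and PBS, the phenformin tumour saline and the drug, the poly I:C tumour this RNA and PBS, and the combination tumour both agents. Phenformin, a biguanide, is an inhibitor of respiratory complex I, while poly I:C mimics viral double-stranded RNA and acts on Toll-like receptor 3 and on RNA sensors of the cytosol. The study's title places the neutrophils of such tumours, under complex I inhibition with TLR activation, at its centre. The question here is at what level each cell type carried the transcripts of the drug's target, and whether the treatments went with a different level.

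Complex I, or NADH:ubiquinone oxidoreductase, takes electrons from NADH and passes them to ubiquinone while pumping protons across the inner mitochondrial membrane. Its N module oxidises NADH, its Q module reduces ubiquinone, and its membrane arm pumps protons. The pumping core of that arm is encoded by mitochondrial DNA (the mt-Nd genes), and the other subunits are encoded in the nucleus. By these roles the Nduf genes fall into 8 of the N module, 8 of the Q module, 9 of the proximal and 10 of the distal membrane arm, the acyl carrier protein Ndufab1, and 7 assembly factors, which help to build the complex and are not part of it. The other 2 carry the name without being complex I subunits by present knowledge: Ndufa4 is a subunit of complex IV, and Ndufa4l2 is its hypoxia-inducible relative. Neutrophils are known for relying on glycolysis and for holding few mitochondria.

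The promoters of 2 members are shown because these members differed in their places among the cell types. The assembly factor Ndufaf4 was highest in tumour cells and low in macrophages. The membrane arm subunit Ndufc2 had the largest difference in favour of macrophages, and was also higher in tumour cells. Each promoter is the 250 bases before the RefSeq start site on build GRCm38.p6, 5′ to 3′ on the gene's strand, and neither window overlaps an annotated exon. Ndufaf4 lies at chr4:24897833-24898082 and Ndufc2 at chr7:97399753-97400002, both on the plus strand. Capitals mark the core motif of NRF1, a factor known for nuclear genes of respiration, with its reverse complement.
Ndufaf4: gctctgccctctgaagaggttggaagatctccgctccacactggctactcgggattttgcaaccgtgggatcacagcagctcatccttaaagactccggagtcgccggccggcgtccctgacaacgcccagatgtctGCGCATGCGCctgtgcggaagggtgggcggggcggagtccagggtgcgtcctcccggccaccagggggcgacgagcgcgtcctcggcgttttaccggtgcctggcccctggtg
Ndufc2: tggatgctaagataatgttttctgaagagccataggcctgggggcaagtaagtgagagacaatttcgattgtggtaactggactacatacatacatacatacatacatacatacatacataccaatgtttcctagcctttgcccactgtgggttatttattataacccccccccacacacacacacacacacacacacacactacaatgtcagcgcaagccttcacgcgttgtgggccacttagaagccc
The NRF1 core, written GCGCATG and searched on both strands (the Ndufaf4 window holds it on either strand, overlapping), was found in Ndufaf4, Ndufa6, Ndufa8, Ndufa11 and Ndufb6, which is 12.8% of the 39 members with a RefSeq promoter against 3.32% of all 27025 promoters. The ETS motif CCGGAAG was found in Ndufaf1, Ndufb6, Ndufb7 and Ndufs3 (10.3% against 7.05%), and the ERR motif AAGGTCA in Ndufb2, Ndufb4 and Ndufs5 (7.69% against 4.05%). The YY1 core AAGATGG was found in 0 member windows and in 4.53% of all promoters. A match describes the letters only, and the Ndufc2 window held none of these motifs.

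Barcodes with 200 or more genes and a mitochondrial share below 20% were used, which gave 5453 to 8268 cells and 57332308 to 76070132 UMIs per library. They were sorted by raw UMI gates: T (Cd3d, Cd3e and Cd3g), macrophage (Csf1r, Cd68 and Adgre1), dendritic (Flt3), neutrophil (S100a8 and S100a9, with Csf3r or Cxcr2) and tumour (Krt5 and Krt14, without Ptprc). Markers that the gates did not use were summed as a check. In the neutrophil gate the 6 neutrophil markers summed to 3989 to 7493 counts per 1000000 UMIs (CPM), and in the tumour gate the 6 epithelial markers summed to 3278 to 3988 CPM. The neutrophil gate also held macrophage markers at 1250 CPM in control, 2799 in phenformin, 4582 in poly I:C and 5727 in the combination, and 16.06%, 13.48%, 36.97% and 22.14% of its cells passed another gate as well. The T gate held macrophage markers at 748.6, 746.4, 2595 and 2077 CPM, beside T markers at 1306, 1265, 1112 and 1277 CPM. The dendritic gate held them at 592.5, 587.2, 1655 and 2408 CPM, beside dendritic markers at 1637, 1554, 1360 and 1546 CPM. In both gates the macrophage markers were thus above the gate's own in both libraries with poly I:C. In the neutrophil gate this was so in the poly I:C library alone, at 4582 CPM against 3989 CPM of neutrophil markers. Results for neutrophils are therefore given also for restricted neutrophil cells, 116 to 200 per library, which passed no other gate and held no UMI of the Cd3 genes, of Krt5, Krt14, Krt8 or Krt18, or of Epcam. No macrophage gene was part of this restriction, so cells with macrophage UMIs below that gate's threshold could stay. Macrophage markers were not summed in restricted cells. Neutrophil sums lean on a few deep cells in each set of cells used. The 10 deepest held 35.02% to 56.92% of the Nduf UMIs in the gate and 34.59% to 42.65% in restricted cells. In cells that passed only the neutrophil gate, on which gates were compared, they held 60.39% in control and 77.52% in poly I:C. They held 38.06% there in phenformin and 38.48% in the combination. In the dendritic gate, 31% to 47.78% of cells passed another gate. Between 8 and 21 barcodes were shared by each pair of libraries. All intervals are at the 95% level and cover counting error only, and treatments were not tested, with 1 library each. In GENCODE vM21, 15 of the 45 members overlap a protein-coding gene on the other strand, among them Ndufb2 (Braf), Ndufaf3 (Impdh2), Ndufaf2 (Smim15), Ndufa3 (Tfpt), Ndufb5 (Mrpl47), Ndufs3 (Kbtbd4), Ndufs1 (Eef1b2), Ndufa2 (Tmco6), Ndufa11 (Vmac) and Ndufa4l2 (Shmt2). The strand setting of the counting is not given in the sources used here, so that their values are uncertain where reads of both genes could be counted. On the same strand, 4 members overlap a protein-coding gene: Ndufa13 (Yjefn3), Ndufb2 (Gm42420), Ndufb8 (Gm20538) and Ndufb9 (Gm49356). Strand does not tell the reads of these pairs apart.

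Nuclear complex I transcripts took the smallest share of UMIs in neutrophils and the largest in tumour cells. The summed level of the 45 genes in tumour cells was 6818 CPM in control, 7610 in phenformin, 7947 in poly I:C and 8237 in the combination. In neutrophils it was 3432, 3804, 5457 and 3900 CPM in the same order, 2298, 1658, 4266 and 1575 CPM in those of its cells that passed no other gate, and 1517, 1686, 2098 and 1567 CPM in restricted neutrophil cells. T, macrophage and dendritic sums lay between 5838 and 6824 CPM and overlapped one another. Tumour cells were thus the highest and neutrophils the lowest in each of the 4 libraries.

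**Figure D1:**
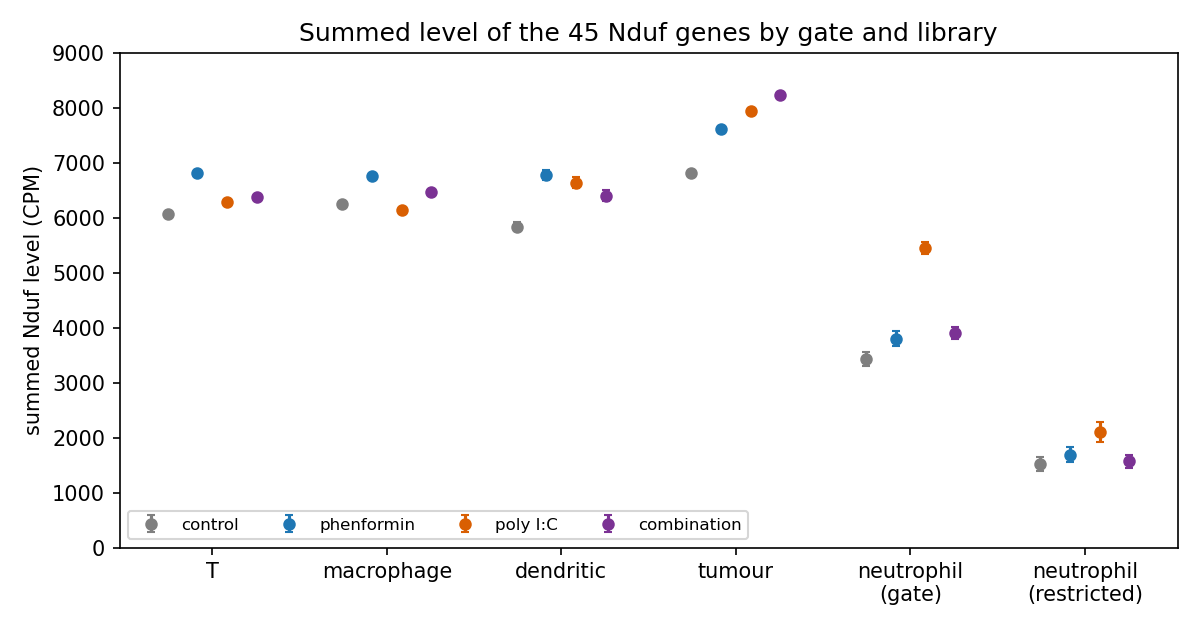
Summed level of the 45 Nduf genes (CPM, y axis) in each gate (x axis) and library (colour), with exact Poisson intervals; restricted neutrophil cells passed no other gate and held no Cd3, keratin or Epcam UMI. Neutrophil points lie below all other gates, and restricted cells between 1517 and 2098 CPM.

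Each gate was tested against the mean of the other 4 on the sums of cells that passed exactly 1 gate, within libraries (edgeR's quasi-likelihood test, 13389 genes, Benjamini-Hochberg adjustment). The 4 libraries serve here as the replicates of a gate although their treatments differ. In neutrophils, 40 of the 45 members were lower and 1 was higher, where 28.7% of all genes tested were lower and 18.5% higher. The median log2 difference of the members was -1.12, against -0.58 over all genes. All 8 N module genes, 7 of 8 Q module genes, 9 of 9 proximal and 10 of 10 distal membrane arm genes were lower. Median depth moved with this result: 1984 to 2530 UMIs per cell in the neutrophil gate and 5063 to 29810 in the other gates. With every cell thinned to 1000 UMIs, 37 of 40 members tested were lower (36.4% of all genes), and with restricted neutrophil cells 41 of 45 (37.4%). DESeq2 called 36 members lower and 2 higher, where it called 18.8% of all genes lower and 23.6% higher.

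The lower members included catalytic subunits. Ndufv1, which binds the FMN cofactor that accepts electrons from NADH, stood at 13.97, 2.768, 29.29 and 9.653 CPM in neutrophils (control, phenformin, poly I:C, then combination, as throughout), on 6, 1, 12 and 5 UMIs. In T cells the same gene stood at 58.55, 60.73, 58.29 and 64.4 CPM, above every neutrophil value. Its log2 difference in neutrophils was -1.81 (SE 0.26, edgeR adjusted p = 6.88e-06). Ndufv2, Ndufs1, Ndufs7 and Ndufs8, which carry iron-sulphur clusters, and the Q module subunit Ndufs3 were lower there too. The other named members were the assembly factor Ndufaf6 (-2.02, edgeR adjusted p = 0.00504, on 0 to 2 UMIs per library), the Q module subunit Ndufa9 (-1.70), Ndufc2 (-1.68) and Ndufb5 (-1.65).

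The exceptions in neutrophils were 5. Ndufaf7, a methyltransferase that acts during assembly of the complex, stood at 11.64, 13.84, 14.64 and 23.17 CPM in neutrophils. It stood at 5.721 to 7.16 CPM in macrophages, where it was lower (-0.76). The neutrophil values overlapped T cells, at 10.9 to 12.44 CPM, and tumour cells, at 12.03 to 13.72 CPM. In restricted neutrophil cells Ndufaf7 stood at 15.08, 14.92, 11.42 and 16.99 CPM. Its log2 difference in neutrophils was 1.21 (SE 0.27, edgeR adjusted p = 8.13e-04), on 5, 5, 6 and 12 UMIs. After thinning to 1000 UMIs it was under the count filter and could not be tested. Ndufa7, a Q module accessory subunit, stood at 107.1, 132.8, 197.7 and 129.4 CPM in neutrophils, which overlapped T cells at 132.2 to 166.3 CPM, and its difference of -0.02 did not pass the test. The assembly factors Ndufaf1 and Ndufaf5 and the relative Ndufa4l2 did not pass it either.

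In macrophages, 34 members were higher and 3 lower, with 39.7% of all genes higher and 18.1% lower, and the median of the members was 0.47 against 0.22 over all genes. DESeq2 called 20 higher and 9 lower, with 27% of all genes higher and 37.7% lower. Ndufc2, of the proximal membrane arm, stood at 235.4, 250.4, 234 and 312.6 CPM in macrophages, against 171.7 to 186.2 CPM in T cells. Its log2 difference in macrophages was 1.02 (SE 0.14, edgeR adjusted p = 2.13e-06). In tumour cells, where it was higher too (0.59), it stood at 213.1, 230.1, 251.8 and 281.5 CPM, which overlapped macrophages. In macrophages it was followed by Ndufc1 (0.95), Ndufb8 (0.94), Ndufa9 (0.91) and Ndufs7 (0.86), the last of which holds an iron-sulphur cluster beside the quinone site. All 9 proximal membrane arm genes were higher. The lower members were not structural subunits: Ndufa4l2 (-2.28), Ndufaf7 (-0.76) and Ndufaf4 (-0.44, which no longer passed without the control or without the poly I:C library). For Ndufa4l2 the mean of the other gates holds the tumour cells, at 52.84 to 74.69 CPM.

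In tumour cells, 27 members were higher and 3 lower, with 42.1% of all genes higher and 32.1% lower. The median of the members was 0.42 against 0.17. Of the assembly factors, 5 of 7 were higher, with a median of 1.07, where 0 of 7 passed the test in T cells and 2 rose and 2 fell in macrophages. Ndufaf4, which works with Ndufaf3 early in assembly, stood at 82.92, 75, 73.31 and 65.12 CPM in tumour cells against 16.57 to 18.78 CPM in macrophages and 21.05 to 27.58 CPM in T cells. The groups do not overlap, and the log2 difference was 1.80 (SE 0.14, edgeR adjusted p = 2.35e-10). Ndufaf2 (1.72), a factor bound to late assembly intermediates, and Ndufaf1 (1.22) followed. Lower were the N module accessory subunit Ndufv3 (-0.63) and the membrane arm subunits Ndufa3 and Ndufb7 (both -0.33).

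The 2 genes that are no complex I subunits were both higher in tumour cells. Ndufa4 stood at 842.1, 967, 940.1 and 973.5 CPM there, at 521.6 to 633.2 CPM in T cells and at 266.9 to 346.2 CPM in macrophages, and its log2 difference was 1.25 (SE 0.21, edgeR adjusted p = 2.32e-05). Ndufa4l2 stood at 52.84, 53.96, 74.69 and 64.75 CPM in tumour cells and at no more than 3.533 CPM in T cells or macrophages (log2 difference 3.83, SE 0.30, edgeR adjusted p = 3.27e-10). A UMI of Ndufa4l2 was found in 23.6% (exact Clopper-Pearson interval 19.3 to 28.2), 30.4% (24.2 to 37.2), 31.3% (27.5 to 35.2) and 23.1% (19.2 to 27.5) of tumour cells, which have a median of 25153 to 29810 UMIs, and in 0.146% to 0.934% of T cells and macrophages, at 5063 to 12136 UMIs. Outside tumour cells its UMIs sat in very few cells: 23 of 28 in the control's dendritic cells came from 1 cell, and 14 of 15 in the poly I:C library's neutrophils from 1 cell.

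**Figure D2:**
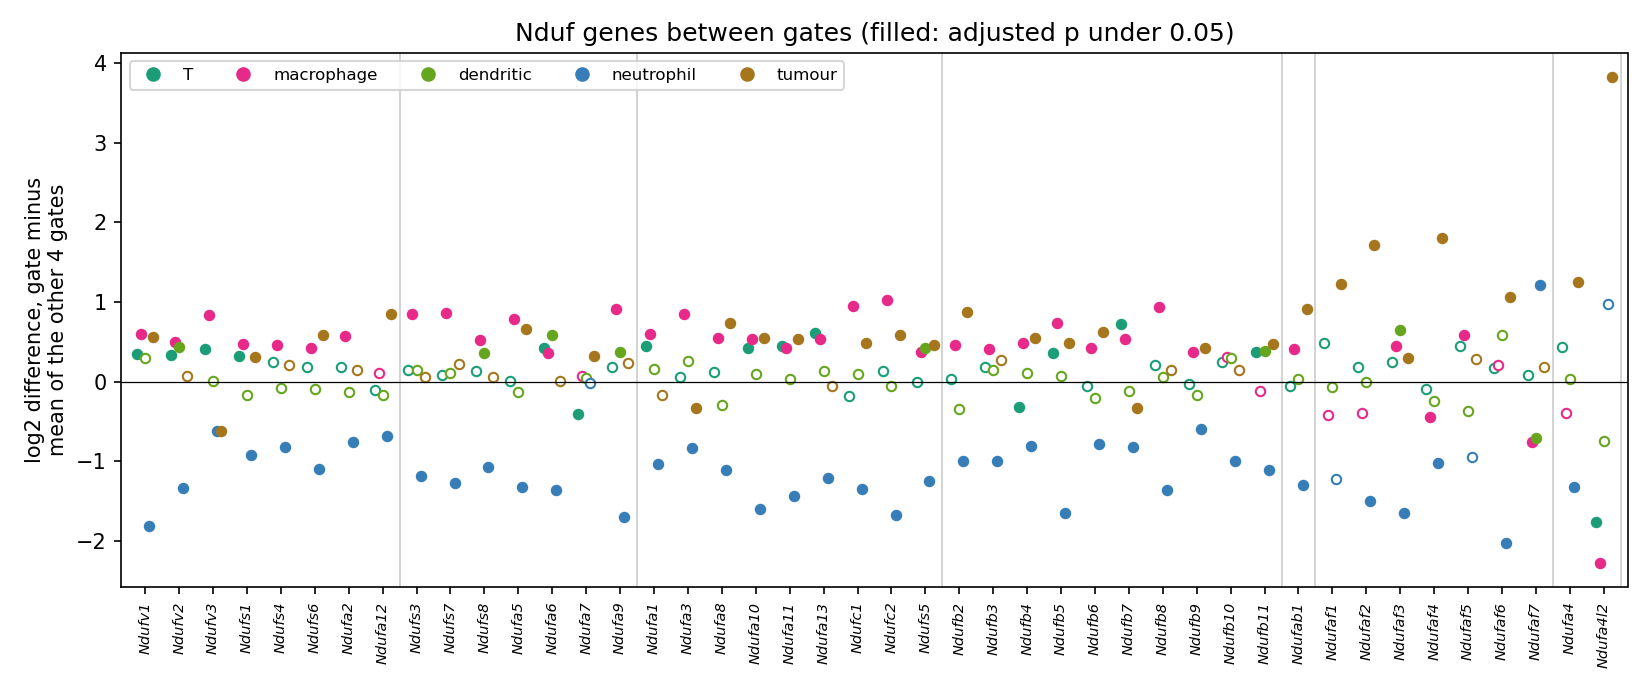
Log2 difference of the members named on the x axis (grouped by role: N module, Q module, proximal and distal membrane arm, acyl carrier, assembly factors, others) between a gate and the mean of the other 4 gates (colour); filled points have an edgeR adjusted p under 0.05. Neutrophil points lie mostly below 0, with Ndufaf7 at 1.21, and tumour points are highest for Ndufa4l2, Ndufaf4 and Ndufaf2.

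T cells had 13 members higher and 3 lower (38.7% and 23.8% of all genes), and dendritic cells 7 higher and 1 lower (22.3% and 16.6%). The member medians of 0.18 and 0.05 lay beside all-gene medians of 0.20 and 0.03. With totals in place of TMM scaling the split was 22 to 2 in T cells (43.2% and 21.5% of all genes) and 14 to 0 in dendritic cells (31.6% and 11.4%). Both sets of calls rest on the neutrophils in the mean they are set against: in a fit without the neutrophil gate, chosen after seeing the data, 4 members were higher and 23 lower in T cells (35% and 34% of all genes), and 4 higher and 20 lower in dendritic cells (24.6% and 24.8%). In that fit, macrophages had 23 higher and 8 lower (37.6% and 34%) and tumour cells 22 and 11 (40.8% and 39.7%). Of the members called higher in T cells, those with the largest differences were the membrane arm subunits Ndufb7 (0.73), at 317.5 to 356.1 CPM against 249.9 to 281.2 CPM in macrophages, Ndufa13 (0.61), also known as GRIM-19, and Ndufa1 (0.44). Called lower there were Ndufa4l2 (-1.77), Ndufa7 (-0.41) and Ndufb4 (-0.32). The mean that Ndufa4l2 was set against holds the tumour cells, at 52.84 to 74.69 CPM. In phenformin and the combination, Ndufa4l2 stood at 3.533 and 3.069 CPM in T cells and had 0 UMIs in dendritic cells and neutrophils. Those highest among the called members in dendritic cells were the assembly factor Ndufaf3 (0.65), Ndufa6 (0.58) and Ndufv2 (0.43), and Ndufaf7 (-0.71) was lower.

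**Figure D3:**
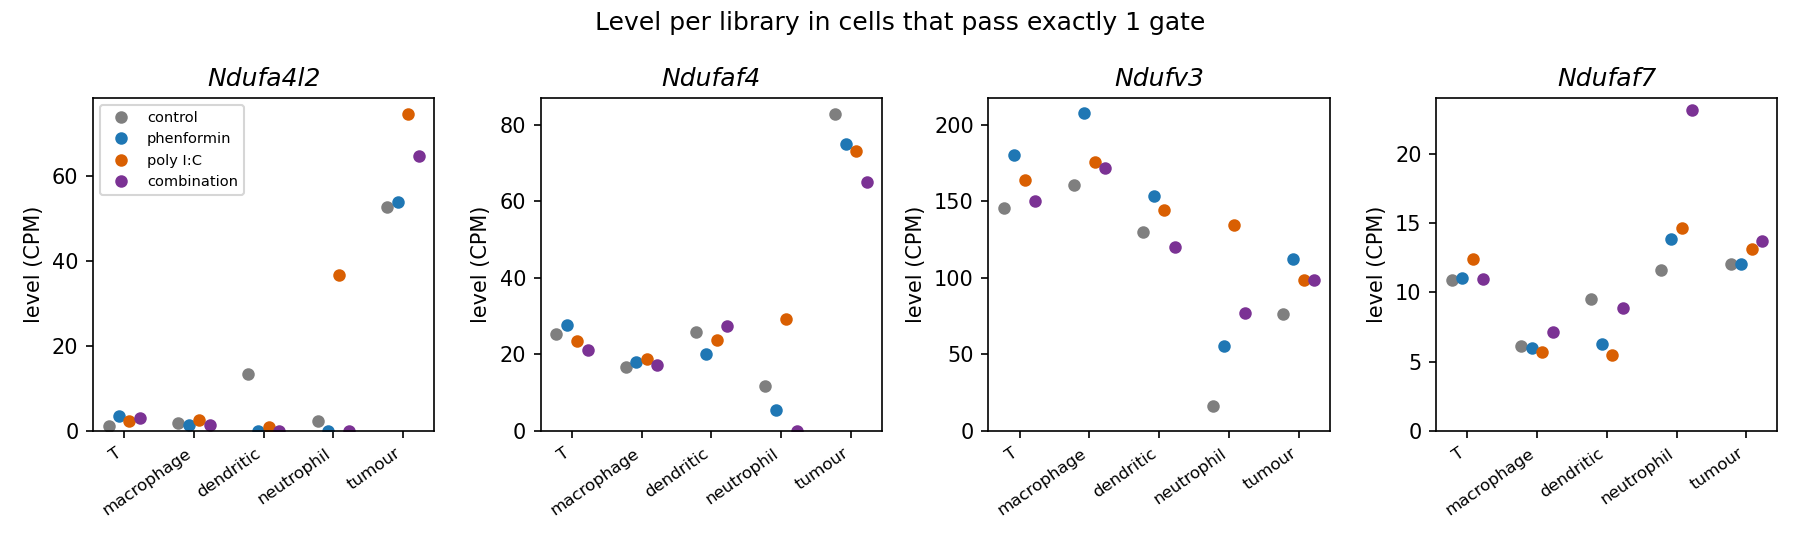
Level (CPM, y axis) of Ndufa4l2, Ndufaf4, Ndufv3 and Ndufaf7 in each gate (x axis) and library (colour), over cells that passed exactly 1 gate; each point is 1 library. Ndufaf4 lies between 65.12 and 82.92 CPM in tumour cells and at or under 29.29 CPM in the other gates.

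The rest of the respiratory chain was also low in neutrophils. All 7 mt-Nd genes, 9 of 9 complex III genes and 10 of 10 complex IV genes were lower there. So were 15 of 15 complex V genes and 3 of 4 complex II genes, where 28.7% of all genes were lower. In that order the medians were -0.62, -1.17, -0.99, -1.28 and -0.83, against -0.58 over all genes. The mt-Nd median thus lay near that of all genes, and 3 of the 7 were above it. In tumour cells, 42.1% of all genes were higher and 32.1% lower, with a median of 0.17. Of the mt-Nd genes, 6 of 7 were higher (median 0.59), and of the complex III genes 6 of 9, with 1 lower. Only 2 of 10 complex IV genes (median -0.06, 1 lower) and 3 of 15 complex V genes (median 0.23) were higher, shares below that of all genes. Of the 4 complex II genes, 0 were higher and 2 lower there. Macrophages had 4 of 4 complex II genes, 8 of 9 complex III genes, 10 of 10 complex IV genes and 11 of 15 complex V genes higher. Of the mt-Nd genes, 1 of 7 was higher there, where 39.7% of all genes were higher. Differences between these lists and the Nduf members were not tested.

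Between treatments, a member was called where the ratio of 2 libraries reached 1.5-fold in either direction and its exact interval did not include 1, among genes of at least 20 CPM in 1 of them. Comparisons with the control share that library. In T cells and macrophages, 0 members (of 38 to 40 compared) were called in any of the 5 comparisons. Set against control, 1.7% (phenformin), 13.2% (poly I:C) and 7.18% (combination) of all genes were called in T cells. For the combination, 3.29% were called against poly I:C and 4.73% against phenformin. In macrophages the shares were 0.905%, 7%, 8.62%, 2.45% and 7.56% in that order. The summed level in T cells was 6076 CPM in control, 6824 in phenformin, 6282 in poly I:C and 6373 in the combination. In macrophages it was 6245, 6759, 6137 and 6476 CPM. Phenformin over control was 1.12-fold in T cells and 1.08-fold in macrophages, short of the 1.2-fold that was set for a sum. Yet 39 of 40 members in T cells and 30 of 38 in macrophages lay above the median of all genes, with a member median log2 ratio of 0.14 against -0.07 and of 0.09 against -0.03. With TMM scaling the T cell sum was 1.204-fold. TMM moved the median of all genes by 0.23 at most.

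In tumour cells the sum in the combination was 1.208-fold that of control (interval 1.196 to 1.22), and 40 of 41 members lay above the all-gene median, although 0 members reached 1.5-fold on their own (13.6% of all genes). Poly I:C over control was 1.166-fold for the sum, with 1 member higher (1.45% of all genes) and 0 lower (16.3%). That member, Ndufaf2, stood at 37.11, 43.79, 56.68 and 53.81 CPM across the libraries, a ratio of 1.527 for poly I:C (interval 1.352 to 1.729). With TMM scaling, 9 members were higher under poly I:C (7.32% of all genes) and 6 under the combination (6.13%). Among the catalytic subunits, Ndufs3, of the Q module, stood at 78.98, 84.3, 87.5 and 109 CPM and Ndufv2, of the N module, at 104.4, 111.1, 127.1 and 144 CPM. Both were lowest in control and highest in the combination. Ndufs1, the largest iron-sulphur subunit, stood at 43.38, 35.69, 34.72 and 39.67 CPM with control highest. Phenformin over control (3.38% of all genes), the combination over poly I:C (1%) and the combination over phenformin (3.08%) gave 0 members called.

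In dendritic cells, phenformin over control gave 1 member higher (2.13% of all genes) and 0 lower (5.05%). It was Ndufb2, a subunit of the distal membrane arm, at 68.73, 114.9, 88.85 and 71.82 CPM across the libraries, with a ratio of 1.672 (interval 1.416 to 1.978), which was 0.9907 when cells were thinned to 1000 UMIs. The combination over phenformin gave 3 lower (3.93% of all genes) and 0 higher (8.39%): Ndufb2 (0.625), Ndufa3 (0.6285) and Ndufa2 (0.6606). Macrophage markers in these cells were at 587.2 CPM in phenformin and 2408 CPM in the combination, and their part in the result was not tested. Ndufa3, of the proximal membrane arm, stood at 90.33, 130.5, 88.07 and 82.02 CPM, so that phenformin alone was apart from the other libraries. Against control, poly I:C (15.8% of all genes) and the combination (14.3%) gave 0 members called, as did the combination against poly I:C (9.75%).

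**Figure D4:**
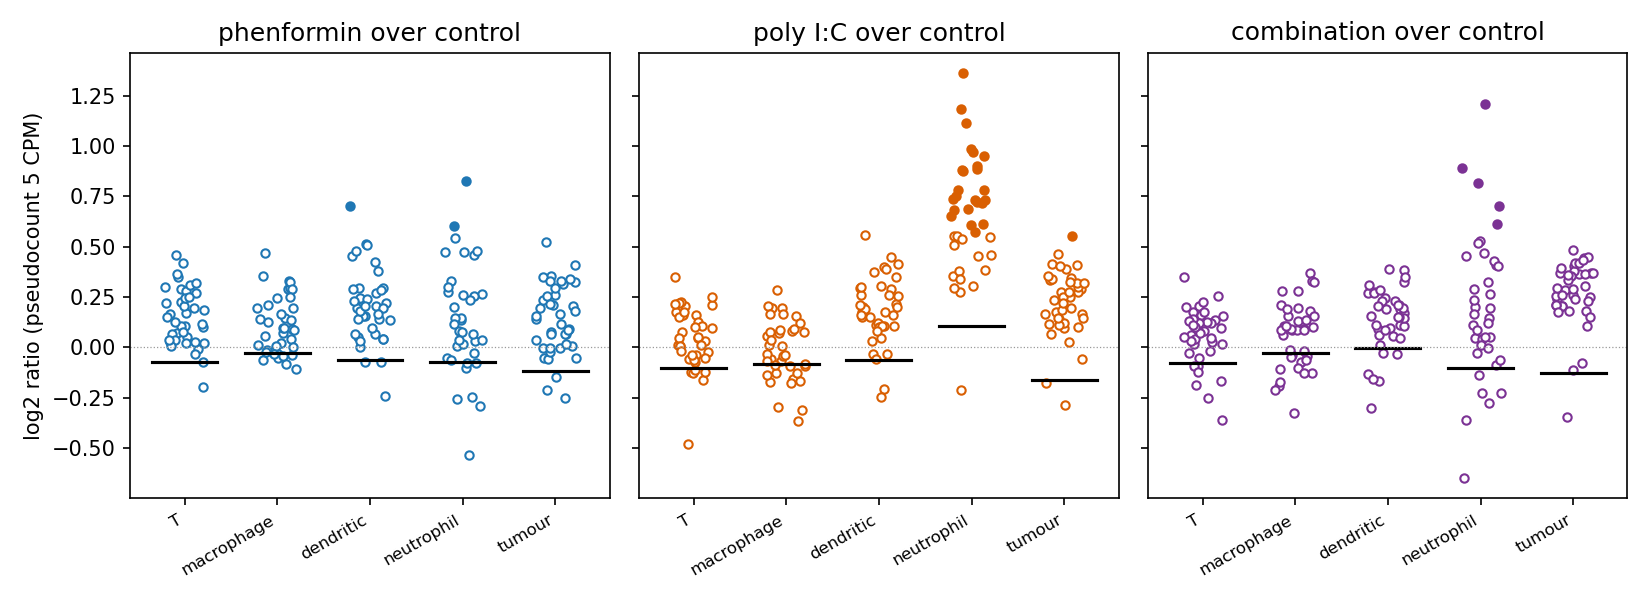
Log2 ratio over control (y axis, pseudocount 5 CPM) of each member compared, by gate (x axis) and treatment (panel); filled points are called, and black bars are the median of all genes compared. Members lie mostly above the bars, and filled points are frequent only in neutrophils under poly I:C.

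In the neutrophil gate the sums of the libraries lay farther apart than in the other gates. With poly I:C, 24 of 39 members were higher than in control and 0 lower, where 16.5% of all genes were higher and 13.7% lower, and the sum was 1.59-fold (interval 1.525 to 1.658). The members with the largest ratios were Ndufa4l2 (3.895, interval 1.534 to 12.66, on 39 and 5 UMIs), Ndufv3 (2.358) and Ndufs5 (2.256). Ndufv3, an accessory subunit of the NADH-binding tip, stood at 72.15, 112, 170.1 and 138.2 CPM across the libraries. Ndufs5, a membrane arm subunit facing the intermembrane space, stood at 66.23, 76.94, 149.4 and 97.8 CPM. Macrophage markers were at 4582 CPM in the poly I:C neutrophil gate and 1250 CPM in control, and epithelial markers at 564.7 and 338.3 CPM. In cells that passed no other gate the sum was 1.857-fold (interval 1.716 to 2.009), and 23 members were higher. The share of all genes called in these cells is not given here, so that this count has nothing to be set against. In the poly I:C library, 77.52% of their Nduf UMIs came from the 10 deepest cells. In restricted cells the sum was 1.383-fold (interval 1.223 to 1.564), and 4 of 33 members were higher and 1 lower, where 9.84% of all genes were higher and 10.7% lower.

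Ndufv3 was among the members that were still called in restricted cells, at 15.08, 56.68, 118 and 70.07 CPM on 5, 19, 31 and 33 UMIs, so that control was lowest and poly I:C highest in both sets of cells. It was called higher over control in all 3 treated libraries, which share that control, in the gate as a whole and in restricted cells too. In restricted cells phenformin over control had 2 of 32 members higher and 1 lower (3.22% and 5.14% of all genes), and the combination 2 higher and 1 lower (8.04% and 15.7%). Ndufs5 stood at 15.08, 35.8, 57.11 and 36.1 CPM in restricted cells. The other 2 higher with poly I:C were Ndufb5 and Ndufb7. Ndufa11, a membrane arm subunit, was the member that was lower, at 48.26, 41.77, 11.42 and 29.73 CPM on 16, 14, 3 and 14 UMIs. Ndufa4l2 had 1, 0, 1 and 0 UMIs in restricted cells, too few to compare.

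In neutrophil cells of 1 gate, the sum in the combination was 0.3693-fold that of poly I:C, with 33 members lower. The share of all genes lower in those cells is not given here. In the neutrophil gate as a whole the sum was 0.7146-fold, and 16 of 40 members were lower and 0 higher (16.9% and 7.82% of all genes). Ndufa4l2 had 0 UMIs in the combination and 39 in poly I:C, Ndufaf4 stood at 23.04 CPM in poly I:C and 6.209 CPM in the combination (0.2696), and Ndufb2 at 82.1 and 35.7 CPM (0.4349). In restricted cells the sum was 0.747-fold, with 4 of 33 members lower (Ndufb3, Ndufa4, Ndufs4 and Ndufb10) and 1 higher (Ndufa6), where 9.37% of all genes were lower and 4.12% higher. Against control, the combination had 5 members higher (8.25% of all genes) and 0 lower (15%) in the gate, with a sum of 1.136-fold, and restricted cells gave 1.033-fold (interval 0.921 to 1.159). Ndufaf3, the largest of the 5, rested on 26 and 5 UMIs. Ndufc2, at 89.89, 91.78, 169.5 and 162.2 CPM, had a ratio of 1.805 that turned to 0.4607 in cells of 1 gate. Phenformin over control had 2 members higher (4.35%) and 0 lower (7.33%), Ndufb2 and Ndufv3, with a sum of 1.108-fold in the gate, 0.7214-fold in cells of 1 gate and 1.111-fold in restricted cells. The combination over phenformin gave Ndufc2 higher and Ndufb2 lower (8.45% and 10.7% of all genes), and restricted cells gave 1 member higher and 2 lower (8.86% and 13.2%).

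Nduf UMIs per mt-Nd UMI were higher in the libraries with poly I:C. Over all cells, the 45 Nduf genes summed to 6187, 6799, 6593 and 6701 CPM across the libraries, while the 7 mt-Nd genes summed to 7823, 7802, 6328 and 6126 CPM. There were 0.791 Nduf UMIs per mt-Nd UMI in control, 0.871 in phenformin, 1.04 in poly I:C and 1.09 in the combination. Both libraries with poly I:C thus lay above both without it. The same order held in T cells (0.807, 0.883, 1.03 and 1.06), macrophages (0.892, 0.923, 1.09 and 1.27), dendritic cells (0.851, 0.894, 1.01 and 0.957), the neutrophil gate (0.589, 0.731, 0.884 and 1.2) and tumour cells (0.722, 0.784, 0.999 and 0.999). In macrophages that passed no other gate, both sums were lower with poly I:C than in control. The Nduf sum was 6159 against 6286 CPM and the mt-Nd sum 5492 against 6943 CPM. The mt-Nd genes are also part of the share of mitochondrial UMIs by which cells were kept, whose median over all cells was 3.46%, 3.32%, 2.89% and 2.96%.

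Restricted neutrophil cells had a lower mt-Nd sum than control in each treated library, and lowest in those with poly I:C, but not a lower Nduf sum. Their mt-Nd sum was 3993, 3511, 2361 and 1618 CPM. The combination was thus 0.4052-fold control with 6 of 6 genes compared lower (15.7% of all genes). Poly I:C was 0.5911-fold with 4 of 6 lower (10.7%), and phenformin 0.8793-fold (interval 0.8122 to 0.9519) with 1 of 6 lower (5.14%). The Nduf sum in the same cells was 1517, 1686, 2098 and 1567 CPM. The nuclear genes of complex V followed the Nduf genes, at 1327, 1680, 2045 and 1497 CPM, with a poly I:C ratio of 1.541. Complex IV genes were also highest with poly I:C, at 1933, 2035, 2349 and 1769 CPM, with a ratio of 1.215 (interval 1.086 to 1.359). So were complex II genes, at 162.9, 179, 217 and 161.4 CPM, with a ratio of 1.332 whose interval included 1 (0.9021 to 1.97). Complex III genes did not follow the Nduf genes, at 585.1, 608.6, 593.9 and 530.8 CPM with overlapping intervals.

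**Figure D5:**
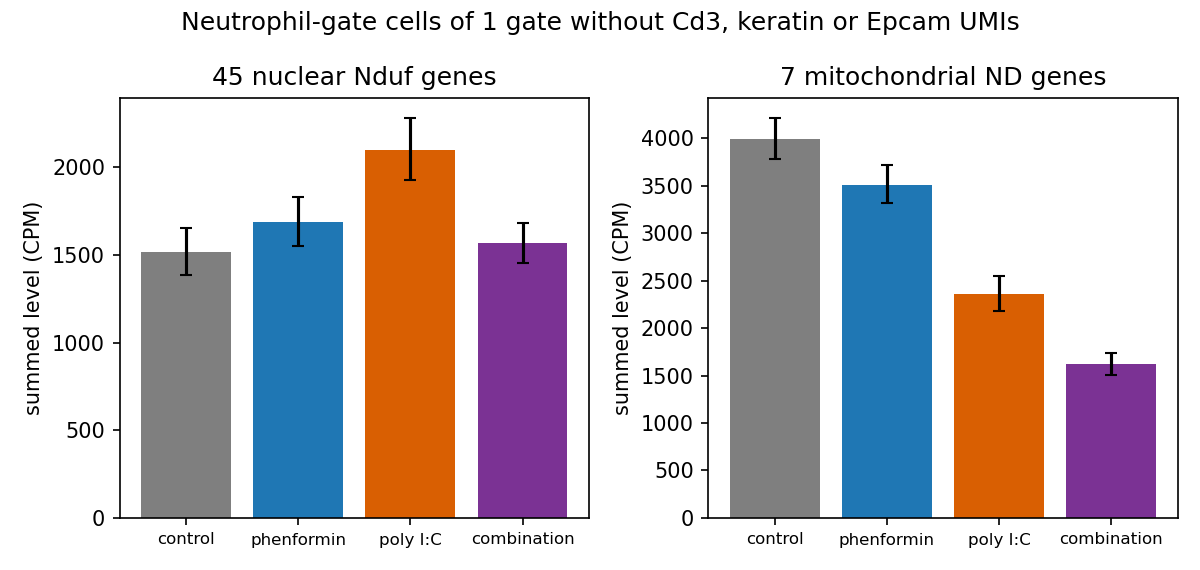
Summed level (CPM, y axis, from 0) of the nuclear Nduf genes and of the mitochondrial ND genes in restricted neutrophil cells of each library (x axis), with exact Poisson intervals. The nuclear sum is highest with poly I:C at 2098 CPM, and the mitochondrial sum is lowest in the combination at 1618 CPM.

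In the 2 by 2 layout, the combination lay below the product of the single treatments for the Nduf sum in every gate. On the log2 scale the difference was -0.15 ± 0.02 (half-width of the 95% counting interval) in T cells, -0.04 ± 0.01 in macrophages, -0.27 ± 0.04 in dendritic cells, -0.63 ± 0.09 in neutrophils and -0.11 ± 0.02 in tumour cells. Neutrophils were thus farthest from the product, with the mixed cells in the sum, and with 1 library per treatment no error between tumours can be given.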

How the data were processed

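Single-cell 3' RNA libraries were made from CD45-enriched tumour cells, 10000 loaded per condition per the labels. Each deposited matrix gives unnormalized UMI counts, which the authors obtained with Cell Ranger 3.1.0 on mm10 (GRCm38) per the submitters' processing notes; annotation and further settings were not stated there. The members and lists were chosen with earlier results of these data known.

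Cells, gates and thresholds are given above: at least 2 UMIs for T, 3 for macrophage, 1 for dendritic, 5 and 1 for neutrophil, and 5 with 0 Ptprc for tumour. Doublets were not called. UMIs were summed over cells and scaled to CPM with exact Poisson intervals, ratios have exact conditional intervals, and log2 ratios used a pseudocount of 5 CPM. Gates were compared with edgeR 4.0.16 (R 4.3.3; quasi-likelihood, TMM, library as block, adjusted p under 0.05) on 20 sums, leaving out 14 gate genes, and tested on simulated data. The simulated gates shared the same means apart from genes changed in macrophage sums. They therefore do not show how the fit handles large shifts between gates. Named are up to 3 called members per direction, population and comparison, up to 5 per gate and direction, the core subunits, Ndufa4 and Ndufa4l2; Ndufa7, Ndufs5, Ndufv3 and Ndufa11 values beyond that were chosen after they were seen. The values of 1 member are not reported here, though it is in the counts and sums. Alternatives changed cell filters, gates, depth, scaling, pseudocount, expression filter, tool (DESeq2 1.42.0) and libraries; restricted neutrophil cells and the fit without neutrophils were added after seeing the data. Positions are from GENCODE vM21 and promoters from RefSeq, 39 of 45 matched.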

Additional observations from a re-analysis of the deposited data

Results flagged for a closer look

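In the neutrophil gate, phenformin went with a summed Nduf level of 1.108-fold without poly I:C (phenformin over control) and of 0.7146-fold with it (combination over poly I:C), in opposite directions. Poly I:C over control was 0.9827-fold in macrophages and 1.59-fold in neutrophils, also in opposite directions. The macrophage value was 1.045 with TMM scaling. With 1 library per treatment neither difference was tested. In neutrophil cells that passed no other gate, phenformin went with 0.7214-fold without poly I:C and 0.3693-fold with it, so that both were lower, and poly I:C over control was 1.857-fold. In restricted neutrophil cells the 3 ratios were 1.111, 0.747 and 1.383.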

How the results depend on the processing

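No paired analysis was possible because each treatment has 1 library and the labels give no replicate numbers; gates were compared within libraries. Some settings left the calls they were run on, of summed ratios and neutrophil member counts, as reported. They were the mean over cells, doubled gate thresholds, a 50 CPM minimum and no minimum. A pseudocount of 1 CPM was also run, but it enters log2 ratios only and not these calls, so it could not change them.

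TMM scaling took the phenformin sum past 1.2-fold in all cells (1.209), T cells (1.204), dendritic cells (1.241) and tumour cells (1.228). It also took the tumour poly I:C sum (1.375) and the neutrophil combination over control (1.245) past it. The neutrophil combination over poly I:C fell short of the threshold at 0.8389, with 5 members lower (7.41% of all genes). Without mitochondrial and ribosomal protein genes the tumour poly I:C sum was 1.201. Thinned cells gave 1.214 for phenformin in dendritic cells, 13 members higher with poly I:C in neutrophils, and ratios of 0.9907 for Ndufb2 (dendritic, phenformin over control) and 0.9619 for Ndufc2 (neutrophil, combination over control). In cells of exactly 1 gate the neutrophil sums over control were 0.7214 for phenformin and 0.6856 for the combination, Ndufc2 was 0.4607, and 33 members were lower in the combination than with poly I:C. Without the 5% deepest cells these were 1.375 for the combination over control and 25 members. Restricted cells gave 4 members higher with poly I:C (9.84% of all genes) and 4 lower in the combination than with poly I:C (9.37%). Shares of all genes are not given here for thinned cells, cells of 1 gate or cells without the deepest. Ratios of Ndufaf3 without control UMIs have no value there.

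Member counts between gates follow, with the share of all genes in brackets. T cells had 7 members higher with stricter cell filters (34.1%), 8 with DESeq2 (32.5%), 4 with all gate cells (32.1%) and 22 with totals (43.2%). They had 31 higher with restricted neutrophils (43.4%) and 4 without the neutrophil gate (35%). Lower were 10 with all gate cells (32%), 1 with restricted neutrophils (19.5%) and 23 without the neutrophil gate (34%). In the fit without that gate, Ndufa10 in T cells was -0.035. Dendritic cells had 14 higher with totals (31.6%), 22 with restricted neutrophils (28.1%) and 4 without the neutrophil gate (24.6%). Lower were 2 with stricter filters (16.9%), 4 with DESeq2 (18.9%), 4 with all gate cells (22.9%) and 0 with thinning (11%). With no count filter 2 were lower (11.7%), with totals 0 (11.4%) and without the neutrophil gate 20 (24.8%). Macrophages had 20 higher with DESeq2 (27%). Lower were 6 with stricter filters (22.1%), 9 with DESeq2 (37.7%) and 7 with all gate cells (30.8%). With thinning 1 was lower (16.3%), with restricted neutrophils 1 (11.8%) and without the neutrophil gate 8 (34%). Tumour cells had 1 lower with DESeq2 (31.8%), thinning (33.8%) or totals (27.2%) and 11 without the neutrophil gate (39.7%). Neutrophils had 2 higher with DESeq2 (23.6%) and 0 with thinning (26.3%), where fewer genes passed the count filter. Leaving out each library in turn gave 4 to 21 higher (30.8% to 38%) and 1 to 3 lower (18.9% to 24.6%) in T cells. Dendritic cells had 2 to 7 higher (18.3% to 22.2%) and 0 to 2 lower (12.9% to 14.9%). Macrophages had 24 to 35 higher (31.4% to 38.7%) and 1 to 5 lower (11.9% to 18.8%). Tumour cells had 24 to 29 higher (39.1% to 42.4%) and 1 to 3 lower (27.8% to 30.1%). Neutrophils had 1 higher (16.6% to 17.8%) and 32 to 40 lower (17.5% to 28.4%). The cause of these changes was not tested. Depth limits the neutrophil values too, with 503 to 738 Nduf UMIs per library in restricted cells.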
